A study of Mus musculus with 12 samples.

Results

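Interferon-stimulated genes were described in invariant natural killer T (iNKT) cells of mice aged 6 weeks. iNKT cells are T lymphocytes whose invariant receptor recognises lipid antigen presented by CD1d. The set comprised 46 genes, chosen by symbol from a list of known interferon targets, among the 24781 gene symbols of the deposited expression table. It was chosen with earlier results of these data known, so its choice was not blind to the values. All 46 symbols were present in the table. Libraries came from 100 cells each, sorted as TCRbeta+, NK1.1+, CD1d tetramer+ and CXCR6+. The 4 groups, of 3 libraries each, were CD244+ cells (called C2) and CD244- cells (called C1) of the thymus, and the same subsets of the lung. The labels give no treatment, genotype or strain. The replicates are labelled as independent library preparations and no separate animals are named. The p-values therefore rest on the spread between preparations, which may be purely technical.

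Interferons are secreted proteins that bind receptors on neighbouring cells and signal through Janus kinases to STAT transcription factors. Type I interferon yields a complex, with Irf9 as a DNA-binding part, on the interferon-stimulated response element, while targets of interferon gamma often carry the gamma-activated site. The genes switched on in this way include GTPases that attack the vacuoles of intracellular microbes, sensors and degraders of viral RNA, membrane proteins that block viral entry, and factors that adjust the signal itself. In the thymus, type I interferon is produced at steady state, and a basal level of these transcripts is known in developing T cells.

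The values were molecule counts (unique molecular identifiers) scaled by the authors, here brought to a common total of 10000 per library. A library held 56615 to 71789 molecules in thymus CD244+, 60120 to 67478 in thymus CD244-, 42520 to 51436 in lung CD244+ and 29696 to 32196 in lung CD244- cells, so that 1 molecule was worth 0.139 to 0.337 molecules per 10000. The 13 T cell receptor complex genes measured were seen in every group, at summed levels of 29.3 to 34.7, 35.1 to 38.8, 17.9 to 27.5 and 41.1 to 48.1 molecules per 10000 in the same order. The libraries labelled lung CD244+ stood apart, because 20 markers of macrophages and other myeloid cells summed to 90.3, 180 and 152 molecules per 10000 there and to 1.01 to 3.32 in the 9 other libraries. The 4 class II major histocompatibility genes summed to 48.9, 70.0 and 126 in those 3 libraries and to at most 0.621 elsewhere. Fewer cells of a type and less RNA per cell cannot be told apart in such pools.

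Promoters of the members were searched for both elements, because the set is defined by its response to interferon and not by sequence. RefSeq windows (GRCm38.p6) from 250 bases before to 50 bases after a gene's start were matched for 34 of the 46 members, and 12 had no entry. The core of the interferon-stimulated response element, GAAANNGAA or TTCNNTTTC on the other strand, was found in 21 of the 34 (61.8%), against 9.76% of 27025 genes with a window and 9.31% of the tested genes with one. The gamma-activated site, TTCNNNGAA, which reads the same on both strands, was found in 10 of 34 (29.4%) against 9.55% of all genes. Both occurred in 5 members, and 25 of the 34 had 1 window each. Of the 7 matched members that were lower in lung CD244- than in thymus CD244- cells, 5 held the response element core. Their sequences are shown because this comparison had the most members past the threshold, with capitals for the response element core. They are 160 bases directly before the annotated start for Ifi209, Igtp, Slfn1 and Slfn8, and a site of 30 bases for Ifit1, Irgm1 and Slfn5, where the upstream stretch meets an annotated exon.
Ifi209 (chr1:173630699-173630858, plus strand): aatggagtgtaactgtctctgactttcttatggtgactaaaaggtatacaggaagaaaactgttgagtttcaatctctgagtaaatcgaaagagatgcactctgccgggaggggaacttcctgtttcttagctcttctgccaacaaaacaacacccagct
Slfn1 (chr11:83116660-83116819, plus strand): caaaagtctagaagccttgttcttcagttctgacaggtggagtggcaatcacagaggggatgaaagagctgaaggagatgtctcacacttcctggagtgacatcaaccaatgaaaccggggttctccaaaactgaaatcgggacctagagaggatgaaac
Igtp (chr11:58199396-58199555, plus strand): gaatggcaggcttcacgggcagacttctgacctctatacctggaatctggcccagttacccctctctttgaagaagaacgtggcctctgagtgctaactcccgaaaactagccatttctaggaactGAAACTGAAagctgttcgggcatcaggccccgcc
Slfn8 (chr11:83020811-83020970, minus strand): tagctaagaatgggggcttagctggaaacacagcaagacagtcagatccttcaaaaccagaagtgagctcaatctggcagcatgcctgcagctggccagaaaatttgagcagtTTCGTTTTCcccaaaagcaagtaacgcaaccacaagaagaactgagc
Ifit1 (chr19:34640772-34640801, plus strand): ctgcaggcTTCAGTTTCACTTTCcagtctc
Irgm1 (chr11:48871429-48871458, minus strand): tgtttcaaGAAATAGAAACCGAAactgatt
Slfn5 (chr11:82951959-82951988, plus strand): aaaaaaagctcTTCTCTTTCttaaagttaa
The cores of Ifit1 begin 109 and 103 bases before the start, and another begins at 84 bases. The cores of Irgm1 begin at 30 and 24 bases, and in both genes the neighbouring pair overlaps. Igtp holds a core at 34 bases and a gamma-activated site at 45 bases before the start. Ifi209 and Slfn1 have neither motif in this window, which says only that these letters are not there. A match is a description of the sequence and not a measured binding site.

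**Figure D1:**
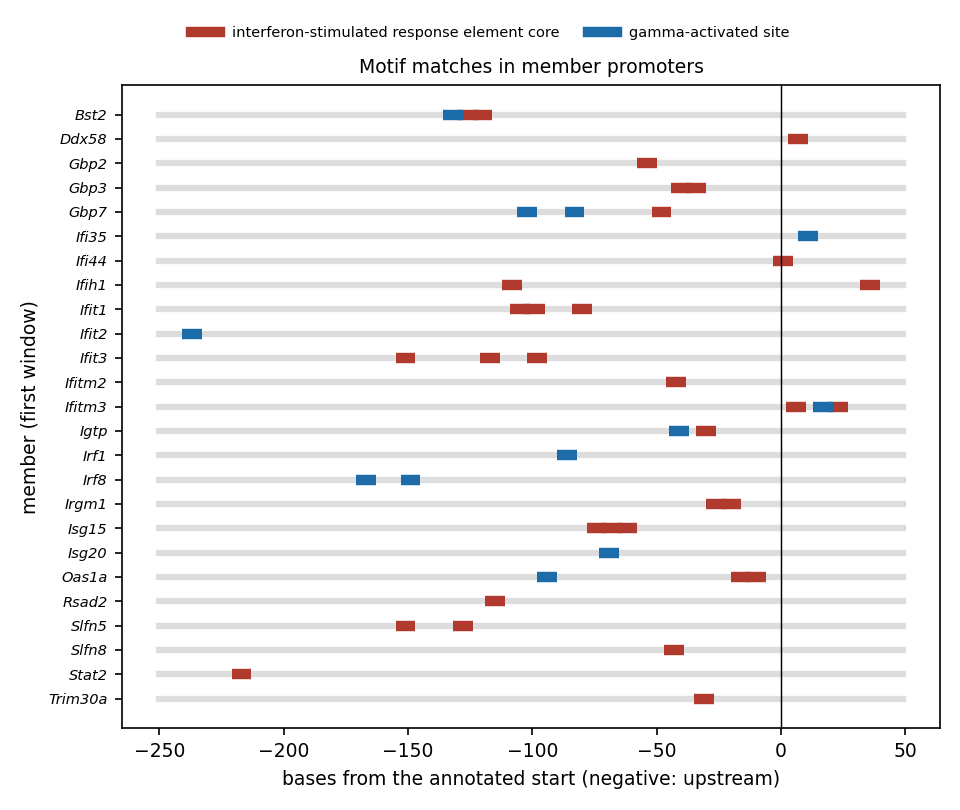
Positions of motif matches in the first RefSeq window of the 25 members with a match there. The x axis is the distance in bases from the annotated start, red blocks mark the interferon-stimulated response element core and blue blocks the gamma-activated site; 28 of the 33 response element cores lie upstream of the start and 27 of these within 160 bases of it.

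All 46 members had at least 1 molecule in thymus CD244+ cells, 45 in thymus CD244-, 42 in lung CD244+ and 36 in lung CD244- cells, where the libraries were shallowest. Counts were low. Summed over the 12 libraries, a member had 3 to 210 molecules with a median of 37. The highest mean levels were those of Ifi27l2a, a small interferon-inducible membrane protein gene (3.21 molecules per 10000), the guanylate-binding protein gene Gbp7 (2.93), the RING finger gene Trim30a (2.80), the DNA-binding PYHIN family gene Ifi203 (2.65), the Schlafen gene Slfn2 (2.58) and the immunity-related GTPase gene Ifi47 (1.89). The barcode sits in the oligo-dT primer, so a molecule counts once whatever its length.

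Summed over the 46 members, the level was 50.4, 47.2 and 40.5 molecules per 10000 in the thymus CD244+ libraries and 55.2, 47.5 and 51.4 in the thymus CD244- libraries. In lung it was 30.2, 24.0 and 24.9 in the CD244+ libraries and 27.9, 32.3 and 30.1 in the CD244- libraries. Every thymus library therefore lay above every lung library, and the 2 subsets of a tissue overlapped. The mean sum was 1.74 times higher in thymus than in lung among CD244+ cells and 1.70 times higher among CD244- cells. Relative to the summed T cell receptor complex genes of the same library, the members stood at 1.38 to 1.49 in thymus CD244+ and 1.10 to 1.35 in lung CD244+ cells, and at 1.33 to 1.49 in thymus CD244- and 0.626 to 0.680 in lung CD244- cells. The order of the tissues was thus the same on that scale, and the gap was narrower in CD244+ cells and wider in CD244- cells.

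**Figure D2:**
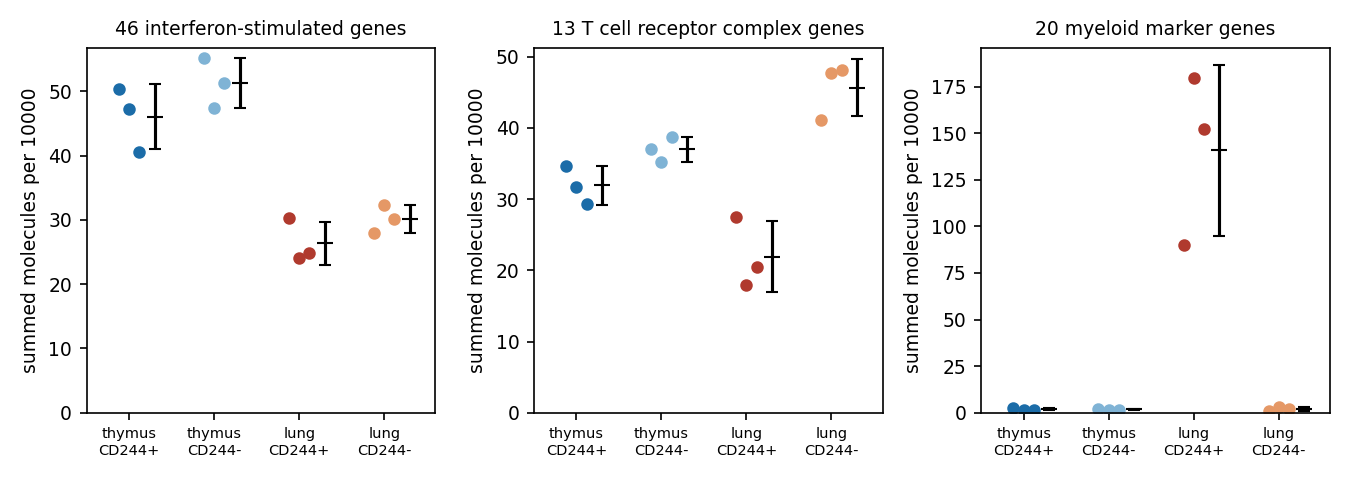
Summed level per library (molecules per 10000, linear axes from 0) of the 46 interferon-stimulated genes, of 13 T cell receptor complex genes and of 20 myeloid marker genes in the 4 groups; bars are mean ± SD, n = 3. The interferon-stimulated genes lie at 40.5 to 55.2 in all thymus libraries and at 24.0 to 32.3 in all lung libraries, while myeloid markers stand out in lung CD244+ libraries alone.

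The families differed in how far their summed levels stood apart. Ifit1, Ifit2 and Ifit3, which encode proteins that bind viral RNA, summed to 2.41 ± 0.742 in thymus CD244+ and 0.341 ± 0.210 in lung CD244+ cells, and to 2.5 ± 0.484 and 0.651 ± 0.330 in CD244- cells (molecules per 10000, SD, n = 3). The libraries of the 2 tissues did not overlap in either subset. The 4 immunity-related GTPase genes, Ifi47, Igtp, Irgm1 and Iigp1, summed to 4.25 ± 1.24 against 1.91 ± 1.29 in CD244+ and to 6.75 ± 1.0 against 2.31 ± 0.841 in CD244- cells, and the tissues overlapped in CD244+ cells. The PYHIN genes Ifi203, Ifi204 and Ifi209 summed to 6.62 ± 0.205 against 2.78 ± 0.720 and to 6.13 ± 0.851 against 2.22 ± 0.825. The 7 guanylate-binding protein genes summed to 7.86 ± 1.88 against 3.23 ± 0.425 in CD244+ and to 9.40 ± 2.97 against 6.07 ± 2.08 in CD244- cells, where the libraries overlapped. The 4 Schlafen genes summed to 4.87 ± 1.01 against 4.03 ± 0.439 in CD244+ cells, where the libraries overlapped, and to 7.42 ± 0.997 against 2.93 ± 1.24 in CD244- cells, where they did not. The 3 nucleic acid sensor genes, at 1.97 ± 0.498 against 1.20 ± 0.430 and 2.07 ± 0.227 against 1.54 ± 1.0, overlapped in both subsets. So did the 4 interferon regulatory factor genes, at 4.30 ± 1.13 against 3.91 ± 1.20 and 4.16 ± 1.40 against 3.59 ± 0.153. Ifitm2 and Ifitm3 had the opposite order in CD244+ cells, at 1.26 ± 0.153 in thymus against 2.46 ± 0.919 in lung with overlapping libraries, and summed to 1 molecule in thymus CD244- and 0 in lung CD244- cells. These sums are descriptions and were not tested.

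Single genes were tested with limma over the whole table, among 4577 genes that exceeded 0.5 molecules per 10000 in at least 3 libraries. Of the 46 members 35 passed this filter. Isg15 passed it through lung CD244- libraries only, Ifit1 and Rtp4 through thymus libraries only, and Ifitm2 and Ifitm3 through CD244+ libraries only. Members that enter the test through the group where they are high had to differ to be tested, so they were also read with no filter, over 12206 genes and all 46 members. Log2 fold changes were computed from log2(value + 0.5), which understates changes in low genes. In at least 1 of the 5 comparisons 17 members passed a limma adjusted p of 0.05. The share of all tested genes that passed in at least 1 comparison was not counted, so this number describes the members alone. Where the groups of a called member do not overlap, this describes the call and adds no support. The share of all tested genes without overlap was not counted.

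The first comparison asked how lung and thymus differ within the CD244- subset, whose libraries held almost no myeloid RNA. In lung 8 members were lower and 0 were higher. Over all tested genes 3.3% were called lower and 3.58% higher. The members that fell were Ifi209, the Schlafen genes Slfn1, Slfn5 and Slfn8, Ifit1, and the GTPase genes Irgm1, Igtp and Gbp6. With edgeR 1 of 9 testable members was lower and 0 were higher. Over all 1154 genes it tested, edgeR called a larger share here, both directions together. Counting all 46 members with or without a call, 36 had a lower mean in lung, 9 a higher mean and 1 was at the same level. Of the 35 tested members 80% had a log2 fold change below 0 and 17.1% above. Over all tested genes these shares were 50.4% and 47.8%.

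Ifi209, a member of the interferon-inducible PYHIN gene family (chr1:173630917-173647928), had 12.5, 18 and 21 molecules in the thymus CD244- libraries and 1, 2 and 2 in the lung CD244- libraries. All thymus libraries were higher, and the level fell to 0.540 ± 0.178 from 2.68 ± 0.820 molecules per 10000 (log2 fold change -1.59 ± 0.33 SE, limma adjusted p = 0.000536). Fractions of a molecule occur in 15 of the 46 members, and the counting step that made them is not given in the sources used here. The call of Ifi209 held whichever library was left out.

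Schlafen genes are linked to growth restraint and quiescence in T cells. Slfn1 (chr11:83116849-83122670) had 17, 20 and 11 molecules in thymus and 1, 1 and 4 in lung (-1.45 ± 0.37, limma adjusted p = 0.00739). Slfn5 (chr11:82951349-82964840) had 10, 2 and 6 molecules in thymus and none in lung, at least 2.84-fold lower when the lung group is set to a floor of 3 molecules in all (-1.42 ± 0.40, limma adjusted p = 0.0149). Slfn8 (chr11:83002158-83020810) had 6, 6 and 7 against 0, 1.33 and 0 molecules. Its share of molecules in lung was 0.148 times that in thymus (95% interval 0.00268 to 0.70; log2 fold change -1.26 ± 0.38, limma adjusted p = 0.0285). No library of one tissue reached the other in any of the 3 genes, which were picked by their calls. The fourth member of the family, Slfn2, had 22, 14 and 23 against 5, 5 and 10 molecules and did not pass (-0.44 ± 0.31, limma adjusted p = 0.488).

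Ifit1 (chr19:34640871-34650009) had 5, 5 and 6 molecules in the thymus CD244- libraries and none in lung, at least 2.52-fold lower (log2 fold change -1.40 ± 0.37, limma adjusted p = 0.00878). Irgm1, a regulator of other immunity-related GTPases (chr11:48861968-48871683), had 10, 5 and 7 against 1, 0 and 0 molecules. Its share in lung was 0.096 times that in thymus (interval 0.00233 to 0.594; -1.43 ± 0.39, limma adjusted p = 0.0110). Igtp (chr11:58199556-58207591) had 14, 17 and 15 against 1, 4 and 3.5 molecules (-1.09 ± 0.35, limma adjusted p = 0.0459), at a locus that overlaps Irgm2 on the same strand. Gbp6, a guanylate-binding protein gene (chr5:105270702-105293698), had 12, 8.33 and 6 against 0, 1.95 and 0.5 molecules (-1.33 ± 0.38, limma adjusted p = 0.0168). Its counts are uncertain, since 9 of its 11 nonzero values held a fraction of a molecule and Gbp genes of this cluster are close copies. The tissues did not overlap in any of these 4 genes, which were also picked by their calls. Ifit1 would not have passed the filter without the thymus CD244- libraries, where it is high. With no filter it passed in both subsets (adjusted p = 0.0143 in CD244- and 0.0438 in CD244+ cells), whereas Igtp (0.124) and Slfn8 (0.0742) did not pass in CD244- cells.

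With libraries thinned to the depth of the shallowest, 1 of these 8 calls, Ifi209, was kept, and the others had adjusted p of 0.144 to 0.446. Without thymus CD244- library 1, Gbp6 (adjusted p = 0.122), Igtp (0.0941), Irgm1 (0.0891), Slfn5 (0.172) and Slfn8 (0.0779) missed the threshold and 3 members passed. Without thymus CD244- library 2, Gbp6 (0.0558), Igtp (0.156), Slfn1 (0.0632) and Slfn8 (0.0774) missed it and 4 members passed. Without thymus CD244- library 3, Ifit1 (0.0553), Igtp (0.148), Irgm1 (0.0534), Slfn5 (0.0820) and Slfn8 (0.130) missed it and 4 members passed, Ifi47 among them. Without lung CD244- library 1, Gbp6 (0.103), Igtp (0.25) and Slfn8 (0.0961) missed it and 5 passed, and without lung CD244- library 3, Gbp6 (0.0526) and Slfn8 (0.104). Igtp also missed it without any 1 thymus CD244+ library (0.0521 to 0.0573).

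The second comparison asked the same within the CD244+ subset, and its lung libraries carry the myeloid RNA given above. Here 7 members were lower in lung and 0 were higher, against 4.5% and 7.8% of all tested genes. With edgeR 2 of 9 testable members were lower, Gbp7 and Ifi203, and 0 were higher. Its calls among all 1154 genes tested were again a larger share, both directions together. The members that fell were Gbp7, Ifi203, Ifit3, Ifit1, Slfn1, Trim30a and Ifi47. Of all 46 members 35 had a lower mean in lung and 11 a higher one. Among those tested, 80% had a log2 fold change below 0 and 20% above, against 49.8% and 50.2% of all tested genes. The part of the myeloid RNA in these differences was not tested. Scaled instead to the T cell receptor complex genes, which raises the median of all genes by 0.36, the split was 5 lower and 2 higher. Ifi47 (limma adjusted p = 0.124) and Trim30a (0.240) were no longer past the threshold. The share of all genes called on that scale is not given here.

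Gbp7, a guanylate-binding protein gene (chr3:142530342-142550149), had 31, 30.25 and 13 molecules in the thymus CD244+ libraries and 3, 1 and 9 in the lung CD244+ libraries. The level fell to 0.866 ± 0.788 from 3.79 ± 1.32 molecules per 10000 (log2 fold change -1.76 ± 0.32, limma adjusted p = 2.5e-05), with no overlap. Trim30a, which dampens inflammatory signalling (chr7:104409025-104465193), had 35.5, 21.5 and 13 against 9, 6.5 and 5.5 molecules (-1.0 ± 0.30, limma adjusted p = 0.0158). Ifi203 (chr1:173920407-173942672) had 33, 28 and 23 against 9.5, 5 and 4 molecules (-1.48 ± 0.30, limma adjusted p = 0.000159). Its locus overlaps that of Mndal, another PYHIN gene, on the same strand, so reads of this pair may be divided between them.

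Ifit3 (chr19:34583531-34588731) had 6, 9 and 10 molecules in the thymus CD244+ libraries and 0, 0 and 1 in lung, a share 0.0537 times that in thymus (interval 0.00131 to 0.328; -1.69 ± 0.38, limma adjusted p = 0.000647). Ifit1 had 8, 1 and 4 molecules against none, at least 3.23-fold lower (-1.12 ± 0.37, limma adjusted p = 0.0326). Slfn1 had 9, 6 and 7 against 2, 0 and 0, a share 0.122 times that in thymus (interval 0.0139 to 0.497; -1.43 ± 0.37, limma adjusted p = 0.00419). Ifi47 (chr11:49076587-49096974) had 22, 11 and 15 against 8, 1 and 5 molecules (-1.15 ± 0.37, limma adjusted p = 0.0292). In each of these genes, picked by their calls, the lowest thymus library was above the highest lung library once depth was taken into account.

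The calls of Gbp7, Ifi203, Ifit3 and Slfn1 held whichever library was left out. Thinned to the shallowest library, Gbp7, Ifi203 and Trim30a passed and the other 4 did not (adjusted p = 0.168 to 0.323). Without thymus library 1 the count was 4. Trim30a missed the threshold without thymus library 1 (adjusted p = 0.188), thymus library 2 (0.0531) or lung library 3 (0.106), Ifi47 without thymus library 1 (0.154), thymus library 3 (0.111) or lung library 2 (0.313), and Ifit1 without thymus library 1 (0.269), thymus library 3 (0.123) or any lung library (0.109 to 0.121), all of CD244+ cells.

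**Figure D3:**
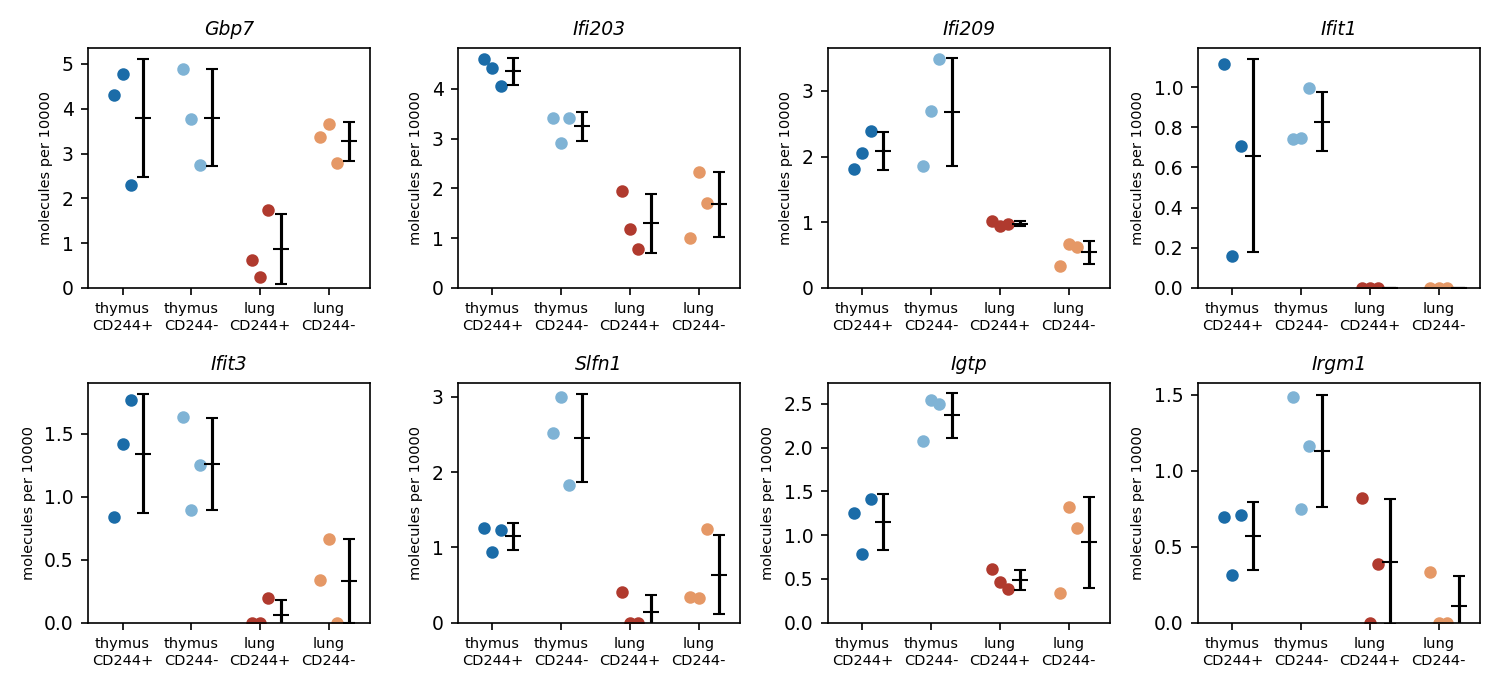
Level per library (molecules per 10000, linear axes from 0) of 8 members that were lower in lung in at least 1 subset; points are libraries and bars are mean ± SD, n = 3. Ifit1 has no molecule in any of the 6 lung libraries, and Gbp7 is low in lung CD244+ libraries but not in lung CD244- libraries.

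Across both subsets 13 members fell in lung, of which Ifit1 and Slfn1 passed in both. The shares of all tested genes called lower in either subset or in both were not counted. The 2 comparisons share no library, but both rest on 1 model and its estimate of the spread, so they are not independent. Without regard to calls, 28 of the 46 members had a lower mean in lung in both subsets. The share of all genes lower in both was not counted. Ifi44, Ifit1, Oasl2 and Usp18 had no molecule in any lung library, with 4, 29, 8 and 3 molecules in thymus. Usp18 removes the ubiquitin-like protein Isg15 from its targets and Oasl2 belongs to the oligoadenylate synthetase family. A member that passed in 1 subset only is not thereby shown to differ between the subsets. Among the 13, the difference between the tissue effects passed the test for Gbp7 alone (log2 difference -1.59 ± 0.45, limma adjusted p = 0.0273), and Trim30a came near it (-1.25 ± 0.42, adjusted p = 0.0895).

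**Figure D4:**
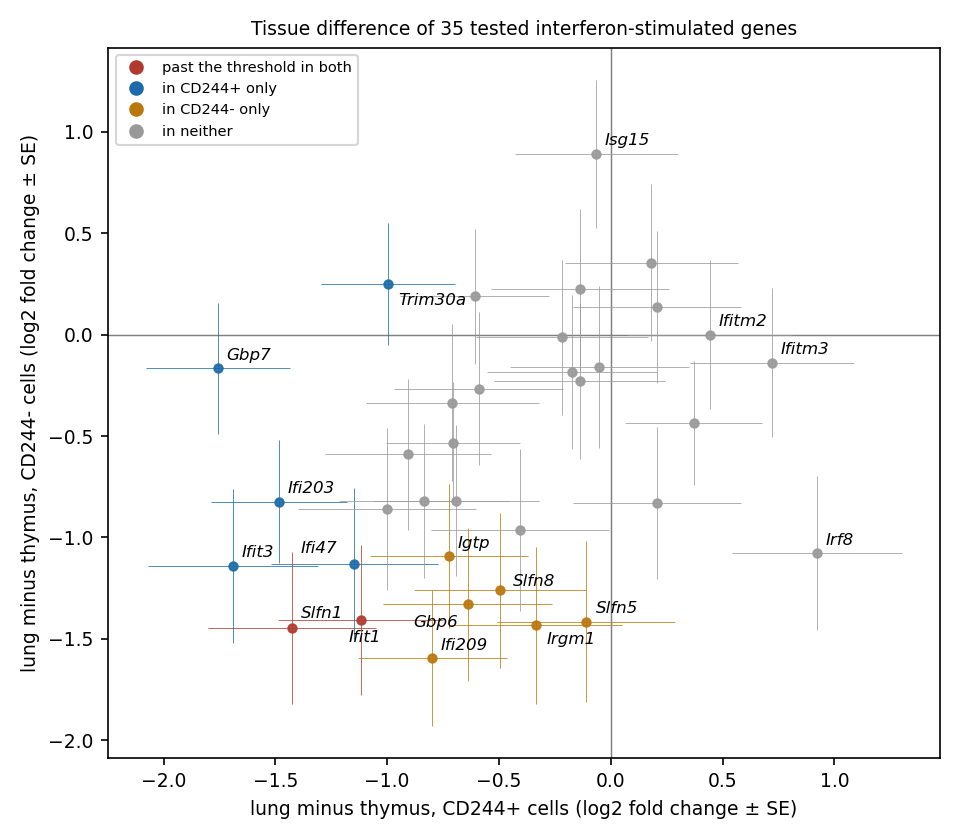
Log2 fold change of lung minus thymus (± SE, on the log2(value + 0.5) scale) of the 35 tested members, in CD244+ cells on the x axis and CD244- cells on the y axis; colours mark members past the limma threshold. Ifit1 and Slfn1 pass in both subsets, while Irf8 lies above 0 in CD244+ and below 0 in CD244- cells without passing in either.

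The third comparison asked how CD244+ and CD244- cells differ in lung. In CD244+ cells 3 members were higher and 3 were lower, against 7.08% and 3.95% of all tested genes. With edgeR 0 of the 9 members it could test passed, and 2 had an unadjusted p under 0.05. Those higher were Ifitm2 and Ifitm3, which encode neighbouring membrane proteins that block the fusion of enveloped viruses, and Irf8, a transcription factor gene required for several myeloid lineages. Those lower were Gbp7, Trim30a and Isg15, the gene of a ubiquitin-like protein. In all, 15 of the 46 members had a higher mean in CD244+ cells, 27 a lower mean and 4 were at 0 in both. Among those tested, 34.3% had a log2 fold change above 0 and 62.9% below, against 49.6% and 50.3% of all tested genes.

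Ifitm2 (chr7:140954837-140955987) had 9, 3 and 7 molecules in the lung CD244+ libraries and none in the lung CD244- libraries, at least 4.08-fold higher (log2 fold change 1.80 ± 0.37, limma adjusted p = 0.00023). Ifitm3 (chr7:141009586-141010770) had 5, 3 and 9 molecules against none, at least 3.65-fold higher (1.68 ± 0.37, limma adjusted p = 0.000574). Irf8 (chr8:120736358-120756694) had 2, 9 and 5 molecules against none, at least 3.44-fold higher (1.60 ± 0.38, limma adjusted p = 0.00173). The 3 calls held without any one library in each fit that tested the gene, and Irf8 was below the filter in 3 of those 12 fits. Ifitm3 and Irf8 would not have passed the filter without the lung CD244+ libraries, where they are high, and Ifitm2 passed it through CD244+ libraries of both tissues. With no filter all 3 were past the threshold (adjusted p = 0.000361 for Ifitm2, 0.000728 for Ifitm3 and 0.00308 for Irf8). Beside them, in lung CD244+ cells each of the 18 myeloid markers tested rose and all 20 had molecules there, whereas 16 of 20 were at 0 in lung CD244- cells, among them Lyz2, C1qa, C1qb, C1qc, Mrc1, Cd14 and Spi1. Irf8 was highest in library 2, which also had the largest myeloid sum, Ifitm2 was highest in library 1, which had the smallest, and Ifitm3 in library 3. Summed markers of some other cells were also higher there. The 8 conventional dendritic cell markers had 29 molecules in lung CD244+ and 0 in lung CD244- libraries, with Xcr1 and Clec9a at 0 in both. The 8 plasmacytoid dendritic cell markers summed to 1.64 to 4.47 against 0.311 to 1.35 molecules per 10000, and the only one tested, Tcf4, rose. The 7 natural killer cell markers, some of which NK1.1+ iNKT cells express themselves, summed to 2.72 to 14.8 against 0.621 to 1.68. Of these 7, 4 had a higher mean in lung CD244+ cells, 2 a lower mean and 1 was equal. The only 1 tested, Gzma, rose. The part of RNA from such cells in these 3 differences was not tested.

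Among the members that fell in lung CD244+ cells, Gbp7 had 3, 1 and 9 molecules against 10, 11 and 9 in CD244- cells, at 0.866 ± 0.788 against 3.27 ± 0.435 molecules per 10000 (log2 fold change -1.61 ± 0.32, limma adjusted p = 0.000153). Trim30a had 9, 6.5 and 5.5 against 9, 14.5 and 8 molecules, and the groups separated only after scaling for depth, at 1.48 ± 0.389 against 3.44 ± 1.22 (-0.97 ± 0.30, limma adjusted p = 0.0229). Isg15 (chr4:156199424-156200818) had 0, 1 and 0 against 2, 2 and 3 molecules, a share 0.0921 times that in CD244- cells (interval 0.00204 to 0.717; -1.14 ± 0.36, limma adjusted p = 0.0300).

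The T cell receptor complex genes, which mark the T cells themselves, fell in 6 of 13 cases in the same comparison. Scaled to their sum, which raises the median of all genes by 0.64, 8 members were higher and 0 lower. Gbp7 had a limma adjusted p of 0.0507 and Trim30a of 0.828 on that scale. The share of all genes called there is not given here, so these counts do not set the members apart from other genes. Trim30a missed the threshold without lung CD244+ library 2 (0.0527) or 3 (0.150) or lung CD244- library 2 (0.154), and Isg15 without lung CD244+ library 1 (0.155), 2 (0.0568) or 3 (0.182). Isg15 passed the filter only through the 3 lung CD244- libraries, where it is high, so it was not tested without any 1 of them or on the T cell receptor scale. With no filter it passed (0.0336), and it missed the threshold on the deposited scale (0.0613), with only the lung libraries in the fit (0.132) and after thinning (0.179).

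**Figure D5:**
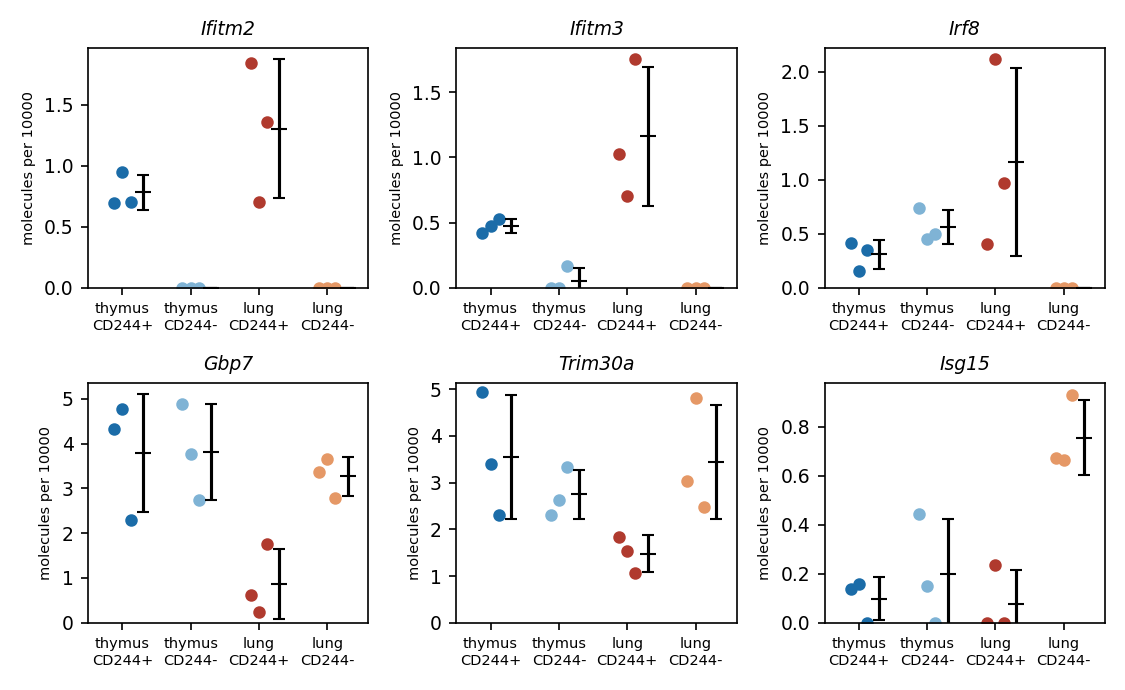
Level per library (molecules per 10000, linear axes from 0) of the 6 members past the threshold between CD244+ and CD244- cells of the lung; points are libraries and bars are mean ± SD, n = 3. Ifitm2, Ifitm3 and Irf8 are at 0 in all 3 lung CD244- libraries, and Isg15 is highest there.

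The fourth comparison asked the same in thymus, where 0 members passed the threshold in either direction with limma. Of all tested genes 0.262% were called higher and 0.0655% lower. With limma 5 of the 35 tested members (14.3%) had an unadjusted p under 0.05, against 4.26% of all tested genes. Ifitm2 and Ifitm3 were higher and Igtp, Slfn1 and Gbp6 lower in CD244+ cells. Ifitm2 and Ifitm3 passed the filter through CD244+ libraries only, so these 2 were tested because they are high there. The share of 14.3% therefore gives no support for an excess. With edgeR, 0 of 9 testable members passed and 0 had an unadjusted p under 0.05. Ifitm2 had 5, 6 and 4 molecules in the CD244+ libraries and none in the CD244- libraries, and the groups did not overlap (log2 fold change 1.35 ± 0.37, limma adjusted p = 0.106). On the deposited scale, in which each tissue keeps its own total and 4930 genes pass the filter, Ifitm2 was past the threshold (1.49, adjusted p = 0.0226). Ifitm3 had 3, 3 and 3 against 0, 0 and 1 molecules (0.82 ± 0.37, adjusted p = 1). In these thymus libraries 15 of 20 myeloid markers were at 0 in each subset, Lyz2, C1qa, C1qb, C1qc and Spi1 included, and the myeloid sum was 1.42 to 2.37 in CD244+ and 1.65 to 2.22 molecules per 10000 in CD244- cells. The sum of the 7 natural killer cell markers was higher in CD244+ libraries too, at 5.12 to 6.15 against 0.0748 to 1.37 in CD244- libraries. Of these 7, 4 had a higher mean in CD244+ cells, 2 a lower mean and 1 was equal. Gzma, the only 1 tested, was past the threshold. Ncr1 was at 0 in both subsets, Klra4 at 0 in CD244+ and Eomes at 0 in CD244- cells. The 9 epithelial markers summed to 0.975 to 1.94 against 0.148 to 1.20, and neither of the 2 tested passed. The part of these in the Ifitm values was not tested.

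Irf8 went the other way in thymus, with 3, 1 and 2 molecules in CD244+ and 5, 3 and 3 in CD244- libraries. The last comparison tested whether the CD244 effect differed between the tissues, and 1 member was higher and 1 lower in lung than in thymus, against 3.47% and 0.765% of all tested genes. Irf8 had the larger CD244 effect in lung (log2 difference 2.0 ± 0.54, limma adjusted p = 0.0154), a call missed without thymus CD244+ library 2 (adjusted p = 0.0702). Gbp7 had the lower one (-1.59 ± 0.45, limma adjusted p = 0.0273). Its levels were 3.79 ± 1.32 and 3.80 ± 1.07 in the 2 thymus groups, and 0.866 ± 0.788 and 3.27 ± 0.435 in lung CD244+ and CD244- cells. The Gbp7 call was missed without thymus CD244+ library 1 or 2 (0.0948 and 0.129), thymus CD244- library 2 or 3 (0.0599 and 0.119), lung CD244+ library 2 (0.194) or lung CD244- library 2 (0.0721), and under scaling to the T cell receptor complex genes (0.194). With libraries thinned to the shallowest, neither Irf8 (0.146) nor Gbp7 (0.188) passed. With edgeR 0 of 9 testable members passed and 0 had an unadjusted p under 0.05.

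The other 18 tested members passed in no comparison. They were Gbp2, Gbp4, Gbp8 and Gbp9, of which the last 3 have overlapping annotated loci on chromosome 5; Irf1, Irf7 and Irf9, which carry the interferon signal to its targets; the RNA sensor gene Ddx58 and the nucleic acid sensor gene Zbp1; and Ifi27l2a, Ifi35, Ifit2, Isg20, Bst2, Rtp4, Xaf1, Slfn2 and Parp14. Ifi27l2a, the most abundant member, had 31, 27 and 17 molecules in thymus CD244+ and 24, 27 and 25 in thymus CD244- libraries, against 10, 6 and 17 and 8, 4 and 14 in lung. Its tissue difference was -0.71 ± 0.30 in CD244+ and -0.53 ± 0.30 in CD244- cells (limma adjusted p = 0.128 and 0.347), with overlapping libraries in both. Ddx58, which encodes the receptor RIG-I, had log2 fold changes of -0.84 ± 0.38 and -0.82 ± 0.38 (adjusted p = 0.166 and 0.221). Zbp1 had 2, 3, 3 and 6, 3, 3 molecules in the thymus libraries and 3, 3, 2 and 4, 2, 1 in the lung libraries, and its level did not separate any pair of groups.

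Another 11 members were too low to test, with 3 to 14.5 molecules over the 12 libraries. They were Gbp3, Ifi204, Ifi44, Ifih1, Iigp1, Mx1, Oas1a, Oasl2, Stat2, Rsad2 and Usp18, and they include the classical antiviral effectors Mx1 and Rsad2 and the RNA sensor Ifih1. None of them enters the counts of calls above. Ifi204 had 7 molecules in lung CD244+ and 0 in lung CD244- cells, with molecules in all 3 CD244+ libraries (0.512, 0.706 and 0.292 per 10000), at least 1.5-fold higher. This gene was singled out after its values were seen.

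The rest of the pathway was followed with lists of ligands, receptors and other targets. Of 21 interferon genes Ifng alone had molecules, 10, 1, 6 and 5 in thymus CD244+, thymus CD244-, lung CD244+ and lung CD244- cells, and it passed in no comparison. The other 20, the type I and lambda interferon genes, were at 0 in all 12 libraries, and their expression was not detectable at this depth. Of 14 tested receptor and signalling genes, 2 were higher and 2 lower in lung than thymus among CD244- cells, and 2 were higher and 1 lower among CD244+ cells. The shares over all tested genes were 3.58% higher and 3.3% lower among CD244- cells, and 7.8% and 4.5% among CD244+ cells. Ifngr1, which encodes the ligand-binding chain of the interferon gamma receptor, had 21, 23.25 and 21 molecules in thymus CD244- and 41, 40 and 40 in lung CD244- libraries, and rose in lung (log2 fold change 1.82 ± 0.20, limma adjusted p = 2.76e-10). This call held whichever library was left out. Socs3, a feedback inhibitor, was at 0 in thymus CD244+ cells and had 41 molecules in lung CD244+ cells, where it rose beside the myeloid markers (2.75 ± 0.37, limma adjusted p = 2.6e-08).

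Of 35 further tested interferon targets, 10 were lower and 1 was higher in lung among CD244+ cells, and 5 were lower and 0 higher among CD244- cells, with median log2 fold changes of -0.40 and -0.20. Over all tested genes 4.5% were lower and 7.8% higher in CD244+ cells, and 3.3% and 3.58% in CD244- cells. Gvin1, a very large interferon-inducible GTPase gene, had 160 molecules in thymus CD244+ and 43.8 in lung CD244+ cells (-1.31 ± 0.24, limma adjusted p = 2.96e-05), and 99.9 against 22.4 in CD244- cells (-0.94 ± 0.24, adjusted p = 0.00719). Tgtp2, an immunity-related GTPase gene, had 39.8 against 3 and 29 against 2.5 molecules (-1.85 ± 0.37 and -1.35 ± 0.37, adjusted p = 8.97e-05 and 0.0111). Tgtp2 passed in CD244+ cells whichever library was left out, and missed in CD244- cells without thymus CD244- library 1 or 3 (largest adjusted p = 0.0973). Mndal, whose locus overlaps Ifi203, fell in CD244- cells (-1.17 ± 0.24, adjusted p = 0.000413). Of the 10 immunoproteasome and antigen-processing genes 0 passed between the tissues in either subset with limma, and 1 in each subset had an unadjusted p under 0.05. With edgeR 0 of the 4 it could test passed in either subset, and 0 and 1 had an unadjusted p under 0.05.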

How the data were processed

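RNA of 100 sorted cells per library was reverse transcribed with an oligo-dT primer carrying a molecular barcode, per the labels' protocols. The reads were aligned with STAR to mm10, per the submitters' processing notes. How molecules were counted, with which annotation, and how columns were scaled is not given in the sources used here. The deposited signal values were found to be molecule counts times 1 constant per library: 94.3% to 95.9% of nonzero values per library were whole molecules (tolerance 1e-06), and column totals were equal within a tissue, 26890.5 in thymus and 19342.9 in lung. Values that were not whole molecules occurred in 15 members. They made up 16.6% of the members' nonzero values, against 4.69% over all tested genes, so counts of members are less certain than those of most genes. They include 7 of 12 nonzero values of Trim30a and 8 of 9 of Ifi204.

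Values were rescaled to 10000 per library. Genes above 0.5 in at least 3 libraries were tested on log2(value + 0.5) with limma 3.58.1 (R 4.3.3, trended and robust variance), 1 model over the 4 groups, with Benjamini-Hochberg adjustment over all tested genes and a threshold of 0.05. The 5 contrasts were the subsets within each tissue, the tissues within each subset, and the difference of these effects. Group means are given ± SD, n = 3, and log2 changes ± SE. Ratios with 1 to 3 molecules in a group have exact 95% intervals, which cover counting error only, as does the floor of 3 molecules. edgeR 4.0.16 (quasi-likelihood) was run on the recovered molecules of 9 libraries, leaving out 3 (thymus CD244+ 1, thymus CD244- 2, lung CD244+ 2) in which a stricter check on the lowest values alone did not find 1 common step, although their share of whole values lay in the range above, over 1154 genes of which 9 were members. It called 12, 180, 299, 219 and 21 genes between the subsets in thymus and in lung, between the tissues in CD244+ and in CD244- cells, and for the difference of effects. The scripts were tested on simulated data.

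The alternatives were 3 other scalings, 2 filters, 2 pseudocounts, a replicate block, only the libraries compared, edgeR and leaving out each library. Thinning to the depth of the shallowest library was added after the values were seen. Members named are those past the threshold (at most 12 per comparison and direction), the 6 most abundant, and those with no molecule at all; genes of other interferon lists are named where past the threshold, at most 4 per list and comparison. Ifng and members named for missing the threshold fall outside this rule and were chosen after their values were seen. 1 gene of the signalling list is not reported here by name. The members and lists were chosen with earlier results of these data known. Gene positions are from GENCODE M21 (GRCm38), in which all 46 members were found, and promoters from RefSeq.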

Additional observations from a re-analysis of the deposited data

Results flagged for a closer look

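In 2 members the CD244 effect differed between lung and thymus by a test of the difference itself. Irf8 had a log2 difference of 2.0 ± 0.54 (limma adjusted p = 0.0154), with 2, 9 and 5 molecules in lung CD244+ libraries, none in lung CD244- libraries, and 3, 1 and 2 against 5, 3 and 3 in thymus. The myeloid markers summed to 90.3, 180 and 152 molecules per 10000 in these lung CD244+ libraries, and their part in the Irf8 difference was not tested. Gbp7 had a log2 difference of -1.59 ± 0.45 (limma adjusted p = 0.0273), its lung CD244+ libraries being the low group.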

How the results depend on the processing

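Members past the threshold numbered 0 between the subsets in thymus, 6 between the subsets in lung, 7 and 8 between the tissues in CD244+ and CD244- cells, and 2 for the difference of effects. In this order, leaving out 1 library gave 0 to 0, 3 to 6, 4 to 8, 3 to 10 and 0 to 3. With the columns as deposited, which move the median of all genes by -0.26 and -0.27 between the tissues, the counts were 1 in thymus, 14 in CD244+ and 16 in CD244- cells. The stricter filter (above 2), which tests 9 members, gave 2 in lung, 4, 4 and 1 in the later comparisons. Fitting only the libraries compared gave 3 in lung. edgeR, with fewer libraries and genes, gave 0 in lung (2 at an unadjusted p under 0.05), 2 in CD244+, 1 in CD244- and 0 for the difference of effects. Thinning gave 3, 1 and 0 in the last 3 comparisons. For the difference of effects, no filter gave 1 and a pseudocount of 2 gave 1. Apart from the smaller number of genes or libraries under the stricter filter, edgeR and the fit of only the libraries compared, the cause was not tested. Except for edgeR, the shares of all genes called under these alternatives are not given here, so the counts describe the members alone.

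With scaling on the T cell receptor complex genes, which moves the median of all genes by 0.64 in lung, 0.36 and -0.15 between the tissues and 0.53 for the difference of effects, the split was 8 higher and 0 lower in lung, 2 higher and 5 lower in CD244+, 0 and 10 in CD244- cells, and 2 and 0 for the difference of effects. The shares of all genes called on the T cell receptor scale are not given here either. Quantile normalization moves the median of all genes by -0.12 between the tissues in CD244+ cells. Across 507 alternative values of 24 pairs of member and comparison (those called, and Ifitm2 in thymus), 424 stayed on their side of the threshold, 82 no longer passed, 1 newly passed and 0 changed sign.

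No pairing by replicate number was visible: deviations of same-numbered libraries correlated at -0.034 to 0.017, and those of other pairs at -0.042 to 0.035. Counting noise in low genes weakens such correlations, so they cannot decide whether same-numbered libraries share a source. With the replicate number as a block the counts were 0, 6, 7, 8 and 2, and Igtp missed the threshold in CD244- cells (limma adjusted p = 0.0514).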
